A study of Mus musculus with 8 samples.

Results

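The genes described here encode the growth factor IGF1 (Igf1), the receptors for IGF1 and insulin (Igf1r and Insr), their docking proteins (Irs1 and Irs2) and 5 IGF-binding proteins (Igfbp3 to Igfbp7). They were chosen by gene symbol from the annotation of a mouse microarray, with 1 probe set per gene, the one brightest on average over all arrays. Of the 10 genes, 9 had a probe set with that symbol alone, among 14860 such genes on 14996 of the 16755 probe sets. Each of the 9 had a single probe set. Irs2 was not analysed here.

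The tissue was tibialis anterior, a fast lower-leg muscle, of 8-week-old male mice with a muscle-specific knockout of ATF4, a stress-responsive transcription factor. In the Gadd45a group, 4 right muscles had received the plasmid pCMV-FLAG-Gadd45a, which encodes tagged Gadd45a, a small nuclear protein induced in atrophying muscle. In the control group, 4 left muscles had received the empty plasmid pcDNA3. All muscles were taken on day 7 after transfection, and all lacked intact ATF4 in muscle, so the comparison shows nothing about fibres with ATF4. Plasmid and side of the body cannot be told apart, nor can Gadd45a and the making of any tagged protein. What drives the Cre recombinase, what share of fibres took up plasmid and whether each array had its own mouse were not given in the sources used here. P-values therefore measure only the spread among these muscles, some of which may be technical, and the number of arrays limits the precision. In whole muscle, fewer cells of a type and less RNA per cell cannot be told apart.

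IGF1 is made by the liver and also within muscle, by fibres and by immune and connective tissue cells, and it promotes fibre growth and repair. It acts through the IGF1 receptor, a tyrosine kinase closely related to the insulin receptor, and both pass the signal through the docking proteins Irs1 and Irs2 to phosphoinositide 3-kinase. IGF-binding proteins hold IGF1 and IGF2 outside the cell and lengthen, block or localise their action. Gadd45a has been linked to the removal of methyl groups from CpG sites in DNA, but methylation was not measured in these muscles.

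The bases just before 3 start sites show how differently these promoters are built. Igf1 and Igfbp6 are shown because they passed the test described below, and Igf1r because it is a receptor gene that did not. This choice was made with their values known. Each run covers the 250 bases before the start site, from RefSeq on build GRCm38.p6, all on the plus strand, with every CG dinucleotide in capitals.
Igf1 (chr10:87860861-87861110): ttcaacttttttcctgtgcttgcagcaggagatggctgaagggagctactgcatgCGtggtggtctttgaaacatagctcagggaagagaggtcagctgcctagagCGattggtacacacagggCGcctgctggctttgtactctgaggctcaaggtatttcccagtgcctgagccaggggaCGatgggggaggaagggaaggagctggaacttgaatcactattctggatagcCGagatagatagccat
Igfbp6 (chr15:102143936-102144185): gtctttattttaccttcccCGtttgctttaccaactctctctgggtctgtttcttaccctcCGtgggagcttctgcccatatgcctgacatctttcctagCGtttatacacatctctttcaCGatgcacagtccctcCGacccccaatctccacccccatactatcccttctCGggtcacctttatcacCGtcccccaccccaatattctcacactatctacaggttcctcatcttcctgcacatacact
Igf1r (chr7:67952007-67952256): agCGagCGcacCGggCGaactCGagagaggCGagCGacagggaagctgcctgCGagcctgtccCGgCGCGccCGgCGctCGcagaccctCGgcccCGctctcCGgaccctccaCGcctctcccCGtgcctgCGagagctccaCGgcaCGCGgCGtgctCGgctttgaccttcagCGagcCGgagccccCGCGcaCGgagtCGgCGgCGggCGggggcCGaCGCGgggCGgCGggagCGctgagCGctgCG
The Igf1 run held 5 CG dinucleotides, the Igfbp6 run 7 and the Igf1r run 42. Windows were matched for 9 of the 10 genes, Insr being the one without. The other measured genes had 10 (Igfbp5), 22 (Igfbp4), 26 (Igfbp7), 28 (Irs1) and 32 (Igfbp3). The median over all 32851 windows in the table was 6, and 92.1% of them held at least 1 CG. The Igf1 window belongs to a start site 2846 bases inside the outermost one in that annotation. Those of Igfbp3 and Igfbp4 lie 1575 and 1239 bases inside the outermost starts of these genes. The arrays do not tell which start was used. The letters TTCNNNGAA, a form recognised by STAT factors and read the same on both strands, occurred in none of these 9 genes' windows and in 7.02% of all windows.

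As a check of the labels, Gadd45a itself read 10.33 ± 0.12 log2 units in Gadd45a muscles and 7.76 ± 0.08 in control muscles (SD, n = 4 each). RNA from the plasmid and from the mouse's own gene cannot be told apart by these probes. Array medians ran from 5.85 to 5.87 in the Gadd45a group and from 5.86 to 5.92 in the control group. The list of fast fibre markers included Myh4, Myh1 and Myh2, which had no probe set with that symbol alone. Of the 7 measured, 3 fell (Ckm, Actn3 and Atp2a1, described below) and 4 did not pass, beside 10.3% lower over all probe sets. The skeletal actin gene Acta1, a defining fibre marker, was among the 4 and read 12.11 to 12.18 in Gadd45a muscles and 12.09 to 12.26 in control muscles. The log2 of the summed signal of all 7 was lower without overlap, at 14.45 to 14.51 in Gadd45a muscles and 14.56 to 14.73 in control muscles.

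Of the 9 measured genes, 1 rose (Igf1), 1 fell (Igfbp6) and 7 did not pass the test, which was limma with Benjamini-Hochberg adjustment over all probe sets at a threshold of 0.05. Over all probe sets 21.1% passed, 10.8% higher and 10.3% lower, so the share called among these genes lay near the background. Values are log2 intensities, on which a difference of 1 is a doubling. Fold changes are given as the Gadd45a mean minus the control mean on that scale. Their median was 0.15 over the 9 genes and -0.065 over all probe sets. The median size of change, whatever its sign, was 0.154 over the 9 genes and 0.173 over all probe sets.

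Igf1, the ligand, changed most of these genes. It read 8.65, 8.56, 8.29 and 8.64 log2 units in the 4 Gadd45a muscles, against 7.75, 7.89, 7.93 and 7.49 in the 4 control muscles. Every Gadd45a array lay above every control array, with a gap of 0.366 between the nearest 2, and Gadd45a array 3 was the lowest of its group. The means were 8.54 ± 0.17 in Gadd45a muscles and 7.77 ± 0.20 in control muscles (SD, n = 4 each). The log2 fold change was 0.77 (SE 0.12, limma adjusted p = 0.00182), a 1.71-fold higher signal with a 95% interval from 1.42-fold to 2.05-fold. Of all probe sets, 1.67% had a more positive change. By exact permutation, two-sided, p was 0.0286, which is the lowest value possible with 70 labellings of 8 arrays. Every gene whose groups do not overlap gets this value, and so did Irs1, Igfbp3, Igfbp4 and Igfbp6. The array does not separate the splice forms of Igf1.

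**Figure D1:**
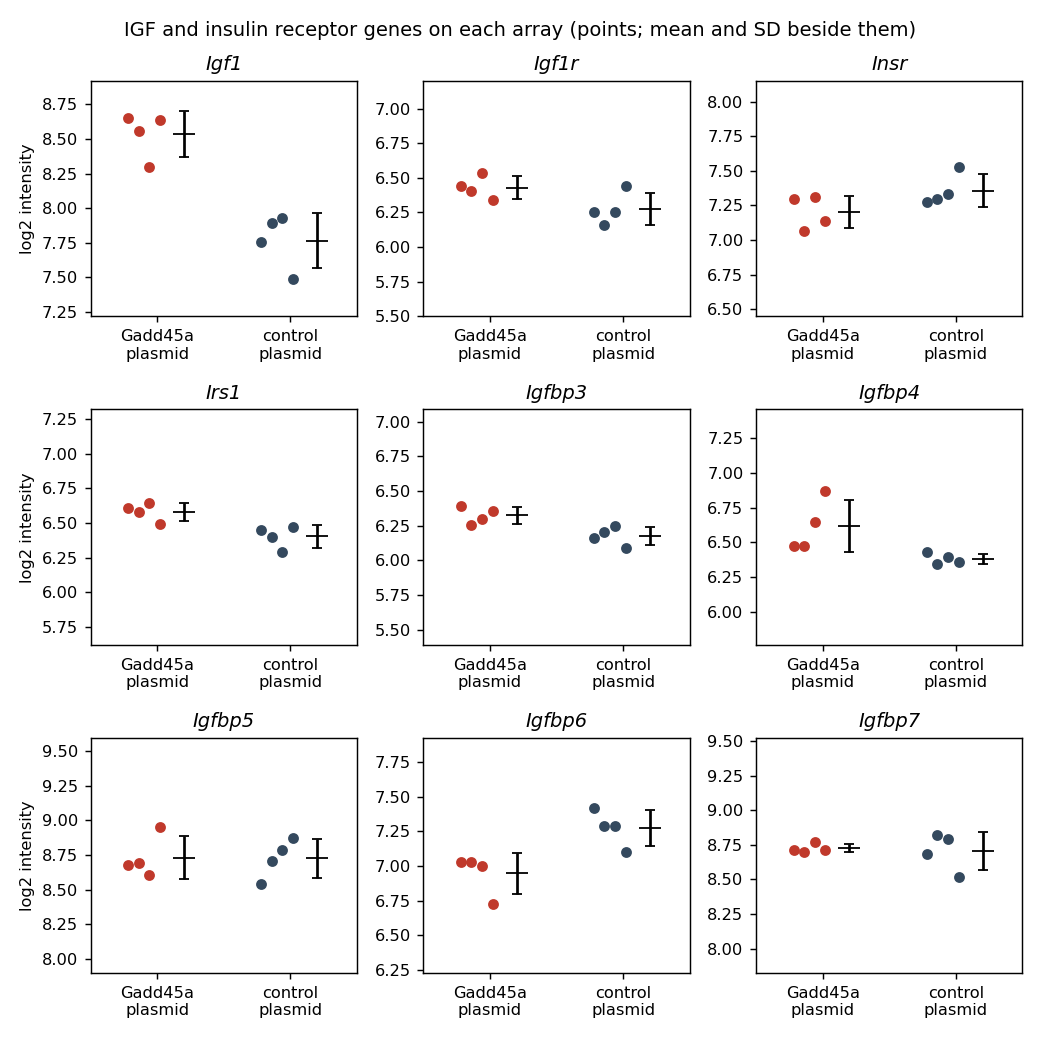
Log2 intensity of the 9 measured genes on each array, with Gadd45a plasmid (red, n = 4) left of control plasmid (dark, n = 4). Points are arrays, bars are mean and SD, and each panel spans the same number of log2 units. Igf1 separates the groups by 0.366 log2 units and Igfbp6 by 0.071 the other way, while Igfbp5 and Igfbp7 overlap.

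Neither receptor passed the test. Igf1r, the receptor for IGF1, read 6.34 to 6.54 in Gadd45a muscles and 6.16 to 6.44 in control muscles. Its log2 fold change was 0.15 (SE 0.08, limma adjusted p = 0.20), with a 95% interval from -0.028 to 0.33. Insr, the insulin receptor, read 7.07 to 7.31 in Gadd45a muscles and 7.27 to 7.53 in control muscles, with overlapping groups. Its log2 fold change was -0.15 (SE 0.09, limma adjusted p = 0.227), with a 95% interval from -0.35 to 0.041. These intervals leave room for differences of up to 1.26-fold for Igf1r and, in the other direction, down to 0.785-fold for Insr.

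Irs1, the docking protein that both receptors phosphorylate, was slightly higher without passing the test. It read 6.61, 6.58, 6.65 and 6.49 in Gadd45a muscles and 6.45, 6.40, 6.29 and 6.47 in control muscles. The groups did not overlap, but only 0.020 log2 units lay between them. The log2 fold change was 0.18 (SE 0.07, limma adjusted p = 0.10).

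Of the 5 binding protein genes 1 fell and 4 did not pass, beside 10.3% lower over all probe sets. Igfbp6, which binds IGF2 in preference to IGF1, read 7.03, 7.03, 7.00 and 6.73 in Gadd45a muscles, against 7.42, 7.29, 7.29 and 7.10 in control muscles. All Gadd45a arrays lay below all control arrays, by at least 0.071, and Gadd45a array 4 lay below the rest of its group. The means were 6.95 ± 0.15 in Gadd45a muscles and 7.27 ± 0.13 in control muscles (SD, n = 4 each). Igfbp6 fell by 0.33 on the log2 scale (SE 0.10, limma adjusted p = 0.0388), to 0.797-fold of the control signal. The fit was repeated 12 times on fewer arrays, removing each single array and each pair with the same number. Igfbp6 missed the threshold in 10 of these 12 reduced fits, with limma adjusted p from 0.0279 to 0.109, and with array weights (0.0529). Igf1 passed in all 12, with limma adjusted p from 0.00172 to 0.0191.

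**Figure D2:**
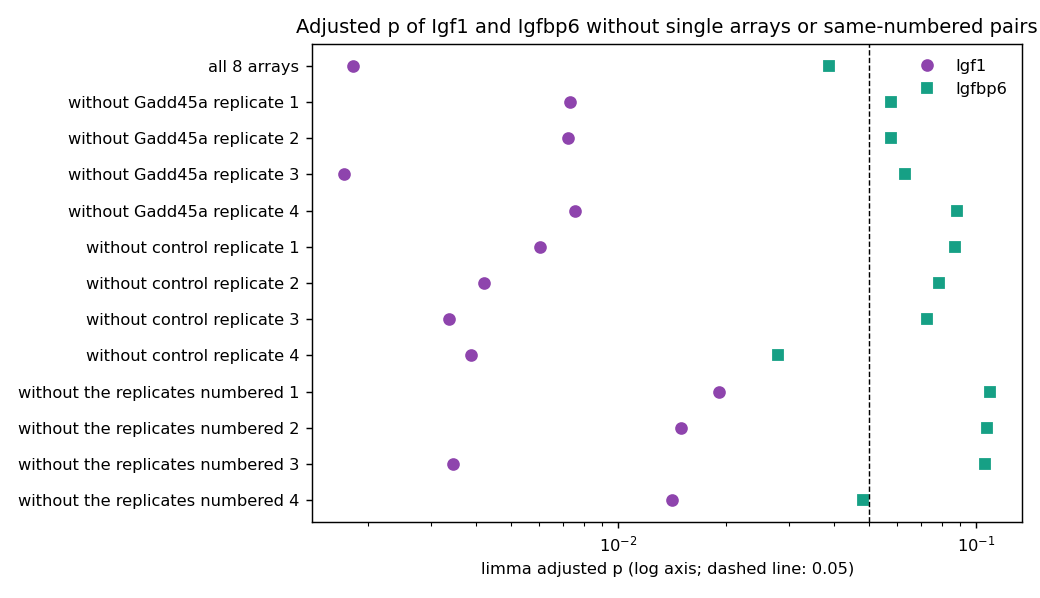
Limma adjusted p of Igf1 (circles) and Igfbp6 (squares) with all 8 arrays and without each array or same-numbered pair, on a log axis with the threshold of 0.05 dashed. Igf1 stays left of the line throughout, up to 0.0191, and Igfbp6 lies right of it in 10 of the 12 reduced fits.

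Igfbp3, the main IGF carrier in blood, read 6.39, 6.25, 6.30 and 6.36 in Gadd45a muscles and 6.16, 6.20, 6.24 and 6.09 in control muscles. Igfbp4, known mainly as an inhibitor of IGF action, read 6.48, 6.48, 6.65 and 6.87 in Gadd45a muscles and 6.43, 6.35, 6.39 and 6.36 in control muscles. In both genes the Gadd45a arrays lay above the control arrays, by 0.0074 and 0.050 log2 units at the nearest, and Igfbp4 varied more among Gadd45a arrays (SD 0.19) than among control arrays (SD 0.037). Neither passed the test: the log2 fold changes were 0.15 for Igfbp3 (SE 0.07, limma adjusted p = 0.136) and 0.24 for Igfbp4 (SE 0.09, limma adjusted p = 0.101). With Igf1, Irs1 and Igfbp6, these made 5 of 9 genes whose groups did not overlap, 4 higher and 1 lower. Over all probe sets 26.9% did not overlap, 13.1% higher and 13.8% lower, and 1200 of those probe sets likewise missed the threshold of the test.

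Igfbp5, a binding protein made by differentiating muscle cells and held in the matrix, averaged 8.73 ± 0.15 in Gadd45a muscles and 8.72 ± 0.14 in control muscles (SD, n = 4 each). Its difference of 0.0067 (SE 0.10, limma adjusted p = 0.97) was far inside the spread between arrays. The 95% interval ran from -0.22 to 0.23 on the log2 scale. Igfbp7, a low-affinity relative found around blood vessels, averaged 8.73 ± 0.03 in Gadd45a muscles and 8.71 ± 0.14 in control muscles (SD, n = 4 each). Its difference was 0.020 (SE 0.08, limma adjusted p = 0.877), with an interval from -0.16 to 0.20. Both differences changed sign under quantile normalization and cyclic loess, so neither has a direction here.

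**Figure D3:**
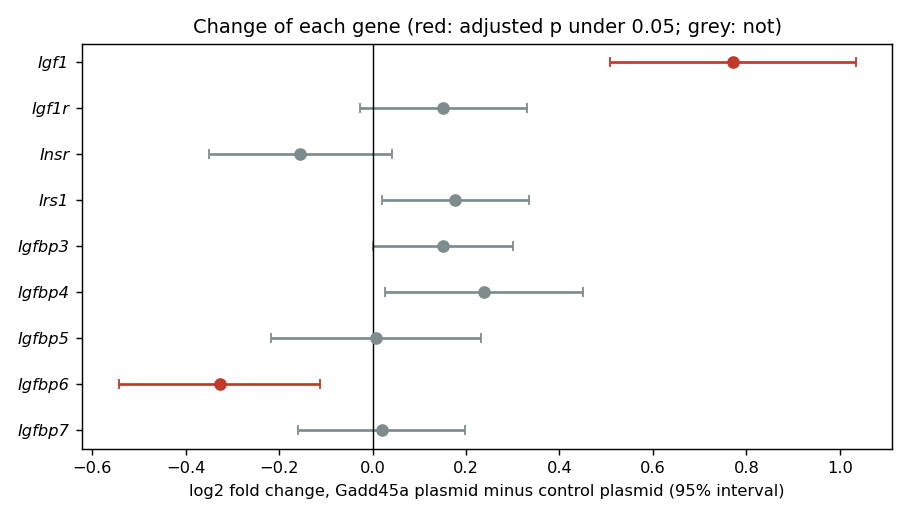
Log2 fold change of Gadd45a over control muscles for the 9 measured genes with 95% intervals from limma, red where the adjusted p was under 0.05. Igf1 stands at 0.77 and Igfbp6 at -0.33, and the other 7 lie between -0.15 and 0.24.

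The genes whose profiles over the 8 arrays lay nearest to that of Igf1 were Baiap2l1, Pcdhb22, Selenop, Clec4a3 and Scn7a. Likeness was the root mean square difference between deviations from each gene's own mean, and ran from 0.079 log2 units for Baiap2l1 to 0.103 for Scn7a among 14591 probe sets compared. For Igfbp6 they were Spertl, Klhdc2, Spryd4, Asgr2 and Stk32b, at 0.043 to 0.059. The measure includes the difference between the groups, so it favours genes with a change of like size: 0.71 to 0.84 for those near Igf1 and -0.37 to -0.28 for those near Igfbp6.

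Around these genes, 62 of 74 other genes of the IGF and insulin pathway on 6 lists were measured. Of them 8 rose, 7 fell and 47 did not pass, beside 10.8% and 10.3% over all probe sets. Among 8 genes of ligands and carriers 2 rose and 0 fell (median -0.0035 on the log2 scale). Igf2, the ligand that Igfbp6 prefers, read 8.65, 8.90, 8.58 and 8.90 in Gadd45a muscles, against 6.61, 7.01, 7.37 and 7.06 in control muscles. The groups were well apart, and control arrays varied more (SD 0.31) than Gadd45a arrays (SD 0.17). The log2 fold change was 1.74 (SE 0.15, limma adjusted p = 0.000115), a 3.34-fold higher signal. Igf2r, the receptor that takes up and clears IGF2, averaged 7.99 ± 0.07 in Gadd45a muscles and 7.28 ± 0.05 in control muscles (SD, n = 4 each). It rose by 0.71 (SE 0.07, limma adjusted p = 0.000149). Igfals, which stabilises the complex of IGF1 with Igfbp3 in blood, missed the threshold at -0.46 (SE 0.15, limma adjusted p = 0.0575). It was dim, at 3.64 to 4.18 in Gadd45a muscles and 4.19 to 4.81 in control muscles, below every array median.

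Growth hormone is the main hormonal stimulus of Igf1 in liver. Of 8 measured genes of its axis 3 fell and 0 rose (median -0.24 on the log2 scale), beside 10.3% and 10.8% over all probe sets. The 8 include Ghrh and Ghrl, which act on release of the hormone and not in its signalling. Both were dim, with group means from 4.64 to 4.82. The signal transducer Stat5b read 7.27, 7.52, 7.60 and 7.45 in Gadd45a muscles, against 8.04, 8.21, 8.20 and 8.19 in control muscles. No Gadd45a array reached the control range, and control array 1 lay below the rest of its group. Stat5b fell by 0.70 on the log2 scale (SE 0.09, limma adjusted p = 0.00056). The kinase Jak2, which growth hormone receptors activate, averaged 7.92 ± 0.09 in Gadd45a muscles and 8.61 ± 0.06 in control muscles (SD, n = 4 each). It fell by 0.68 (SE 0.07, limma adjusted p = 0.000225). The receptor Ghr averaged 8.02 ± 0.09 in Gadd45a muscles and 8.51 ± 0.18 in control muscles (SD, n = 4 each), and fell by 0.49 (SE 0.10, limma adjusted p = 0.00765). All 3 genes passed in all 12 reduced fits. Stat5a (0.06) and the induced inhibitors Socs2 (-0.23) and Cish (-0.25) did not pass.

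**Figure D4:**
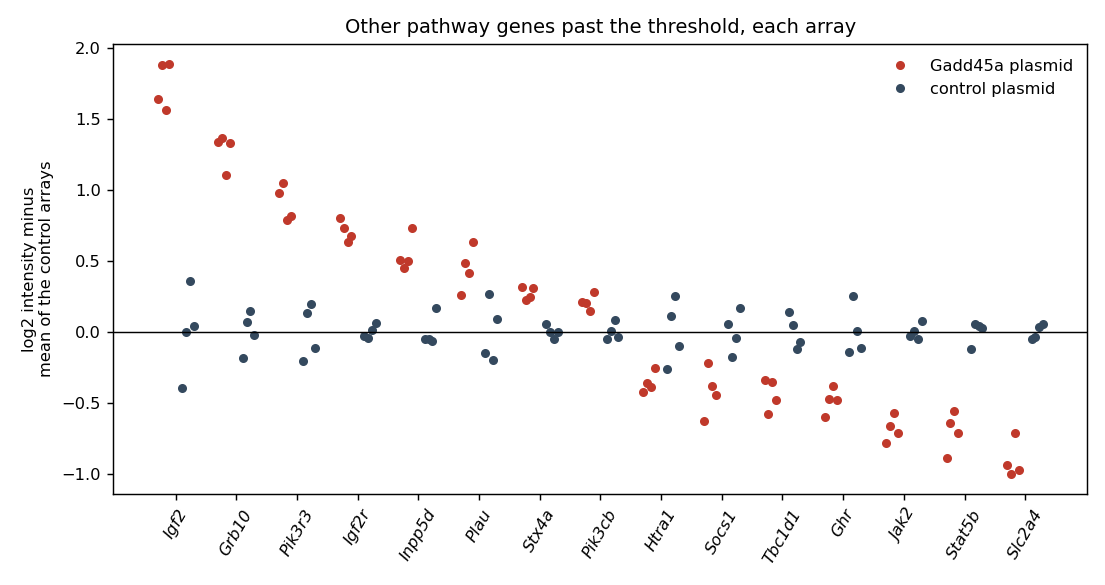
The 15 other pathway genes past the threshold, as log2 intensity on each array minus the mean of the control arrays, with Gadd45a plasmid (red, n = 4) left of control plasmid (dark, n = 4) within each gene. Igf2 (1.74) and Slc2a4 (-0.91) stand at the ends, and the groups overlap for Plau and Htra1.

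Among 18 measured adaptors and dampeners of the receptors 1 rose and 1 fell, with a median of -0.039. Grb10, an adaptor that restrains both receptors, averaged 7.70 ± 0.12 in Gadd45a muscles and 6.42 ± 0.14 in control muscles (SD, n = 4 each), a 2.43-fold higher signal (limma adjusted p = 6.36e-05). Socs1, an inhibitor of cytokine signalling, averaged 6.14 ± 0.17 in Gadd45a muscles and 6.56 ± 0.15 in control muscles (SD, n = 4 each). It fell by 0.42 (SE 0.11, limma adjusted p = 0.0209), and missed the threshold in 6 of the 12 reduced fits and with the replicate number as a block (0.0555). Of 11 phosphoinositide 3-kinase subunits and opposing phosphatases 3 rose and 0 fell. The regulatory subunit gene Pik3r3 rose by 0.91 (SE 0.11, limma adjusted p = 0.000489). Inpp5d, a phosphatase mostly of blood cells, rose by 0.55 (SE 0.09, limma adjusted p = 0.00243). The catalytic subunit gene Pik3cb rose by 0.21 (limma adjusted p = 0.048), and missed the threshold in 11 of the 12 reduced fits, with the block (0.0965), with quantile normalization (0.0579) and with cyclic loess (0.0544).

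Of 9 proteases of binding proteins and their inhibitors 1 rose and 1 fell, both with overlapping groups. Plau, the urokinase, averaged 7.20 ± 0.15 in Gadd45a muscles and 6.75 ± 0.22 in control muscles (SD, n = 4 each; limma adjusted p = 0.027). Htra1, a secreted serine protease, averaged 6.23 ± 0.07 in Gadd45a muscles and 6.58 ± 0.23 in control muscles (SD, n = 4 each; limma adjusted p = 0.0462). Plau missed the threshold in 8 and Htra1 in 10 of the 12 reduced fits, and Htra1 also with the block (0.0591) and with median centring (0.0727). Of 8 genes of glucose uptake under insulin control 1 rose and 2 fell. Slc2a4, the glucose transporter that insulin moves to the surface of fibres, averaged 6.82 ± 0.13 in Gadd45a muscles and 7.73 ± 0.05 in control muscles (SD, n = 4 each). It fell by 0.91 (SE 0.08, limma adjusted p = 0.000118), to 0.533-fold of the control signal. Tbc1d1, which restrains the traffic of that transporter, fell by 0.44 (limma adjusted p = 0.00662), and stood at -0.38 without the arrays numbered 2, where it missed the threshold (limma adjusted p = 0.0535). The syntaxin gene Stx4a, which takes part in its docking, rose by 0.27 (limma adjusted p = 0.0136), and missed the threshold in 3 of the 12 reduced fits, at 0.26 to 0.29 on the log2 scale.

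Markers of cells other than fibres moved in the same muscles, and their counts stand beside 10.8% higher and 10.3% lower over all probe sets. Macrophages are known to make Igf1, and 9 of 12 measured markers of theirs rose and 0 fell (median 0.56 on the log2 scale). The log2 of their summed signal was 11.83 to 12.12 in Gadd45a muscles and 11.20 to 11.32 in control muscles. Csf1r, the receptor that macrophages need to survive, averaged 7.67 ± 0.12 in Gadd45a muscles and 6.70 ± 0.14 in control muscles (SD, n = 4 each; limma adjusted p = 0.000153). Cd163 went the other way without overlap but did not pass (-0.25, limma adjusted p = 0.0649), and neither did Itgam (0.10). Gadd45a array 3, lowest of its group in Igf1, was the lowest of its group in 6 of the 12 macrophage markers and the highest in 1. Control array 4, lowest of its group in Igf1, was the lowest of its group in 3 of the 12 and the highest in 1. The part of these cells in the Igf1 result was not tested.

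Fibroblasts are known sources of Igf1 and of Igfbp4, Igfbp5 and Igfbp6. Of 10 of their measured markers 7 rose and 1 fell, with a median of 0.34. The log2 of their summed signal was 12.48 to 12.59 in Gadd45a muscles and 12.31 to 12.36 in control muscles. Among them Pdgfra rose by 0.58 (limma adjusted p = 0.000945), and Cd34 fell (-0.43, limma adjusted p = 0.00153). Dcn did not pass (-0.19), though all its Gadd45a arrays lay below all control arrays. Of 3 tendon markers 1 rose and 1 fell, at a median of 0.17, and their summed level overlapped (9.93 to 10.09 in Gadd45a muscles, 9.77 to 10.03 in control muscles). Satellite cells and myoblasts had 2 of 9 markers higher and 0 lower, at a median of 0.11, and their summed level also overlapped (9.29 to 9.53 in Gadd45a muscles, 9.26 to 9.42 in control muscles).

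Endothelial cells are known for Igfbp7, Igfbp3 and both receptors. Of 12 endothelial markers 9 fell and 0 rose, with a median of -0.31 and a summed level of 10.39 to 10.44 in Gadd45a muscles and 10.67 to 10.82 in control muscles. Of 7 markers of pericytes and smooth muscle 3 fell and 1 rose, with a median of -0.30, and their summed level overlapped (10.53 to 10.79 in Gadd45a muscles, 10.72 to 11.06 in control muscles). Of 6 adipocyte markers 4 fell and 0 rose, with a median of -0.30 and a summed level of 8.62 to 8.75 in Gadd45a muscles and 9.08 to 9.12 in control muscles. The 3 fast fibre markers that fell, with no overlap between the groups, were the muscle creatine kinase gene Ckm (-0.51, limma adjusted p = 0.00142), the actinin gene Actn3 (-0.54, limma adjusted p = 0.000533) and the calcium pump gene Atp2a1 (-0.48, limma adjusted p = 0.00124). The median of that list was -0.21, and its summed level was 14.45 to 14.51 in Gadd45a muscles and 14.56 to 14.73 in control muscles. Log2 intensities have no true zero, so no marker can be called absent. The part of these cells in the results on Igfbp6, the receptors and the growth hormone genes was not tested.

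**Figure D5:**
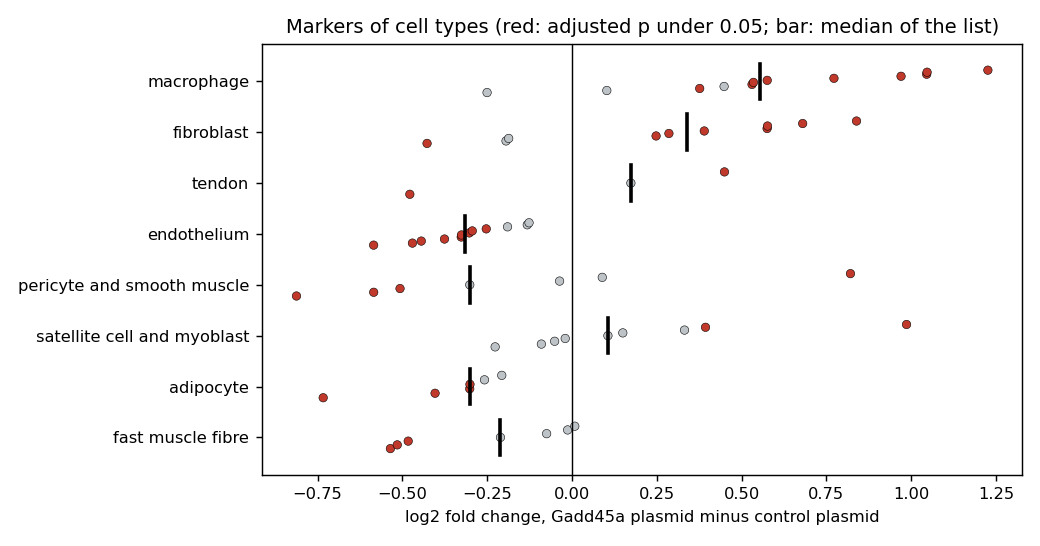
Log2 fold change of Gadd45a over control muscles for each measured marker gene by cell type, red where the limma adjusted p was under 0.05, with the median of each list as a bar. The macrophage median stands at 0.56 and the endothelial median at -0.31.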

How the data were processed

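RNA was measured on 8 microarrays, 4 per group, and groups were taken from the titles. The file deposited by the authors holds 1 log2 intensity for each probe set on each array. GCOS, RMA and the build mm9 are named, with no version, in the submitters' processing notes. RMA subtracts background, gives probe values the same distribution on all arrays and then combines the probes of a set. It removes most differences in brightness between arrays and shrinks small changes of dim probe sets. The medians of the deposited arrays still ran from 5.85 to 5.92. The rule by which probe sets entered the file was not given in the sources used here. No value was missing.

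Of 16755 probe sets, 14996 had 1 symbol in GEO's platform annotation, 1019 had several and 740 had none listed. All 138 genes tabulated were found in a RefSeq table (GRCm38.p6), and 0 symbols changed. Its promoter windows were used only for sequence, since the build differs from mm9. All probe sets were fitted with limma 3.58.1 in R 4.3.3 (lmFit, eBayes, two-sided), Gadd45a plasmid minus control plasmid, with no block. Adjustment was Benjamini-Hochberg over all probe sets, and the threshold was 0.05. SE is the moderated standard error. The fit was tested on simulated data. No list was tested as a set.

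The genes and lists were chosen with earlier results of these data known. Named were the 9 genes, the called members of each pathway list (at most 4, by size of change) and the 5 nearest profiles of each called gene. Marker genes, Igfals, Stat5a, Socs2 and Cish were named after their values were seen, and so were the promoters. Alternatives were the replicate number as a block, array scaling by quantiles, medians or cyclic loess, array weights, a variance fitted robustly with a trend, the brighter part of the probe sets alone (from the median up), averaging where a gene had several probe sets, a threshold of 0.01, and leaving out each array or same-numbered pair.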

Additional observations from a re-analysis of the deposited data

Results flagged for a closer look

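In 5 groups of 4 arrays, 1 value stood apart from the rest by Dixon's ratio (the gap to the nearest array over the range of the group, with a critical value of 0.829 for 4 arrays). Igfbp6 on Gadd45a array 4 read 6.73, against 7.00 to 7.03 on the other Gadd45a arrays (ratio 0.905). Grb10 on Gadd45a array 3 read 7.52, against 7.74 to 7.78 on the others (0.867). Atp2a1, the calcium pump of fast fibres, read 11.58 on Gadd45a array 4, against 11.44 to 11.45 on the others (0.929). Inpp5d on control array 4 read 6.68, against 6.45 to 6.46 on the other control arrays (0.93), and Stat5b on control array 1 read 8.04, against 8.19 to 8.21 (0.868). These were 5 of 132 groups of 4 arrays examined, and chance flags about 1 group in 20. Without Gadd45a array 4, Igfbp6 was at -0.25 (limma adjusted p = 0.0881).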

How the results depend on the processing

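Igf1, and with it the count of 1 gene higher among 9, held in all 12 reduced fits and in the 9 other alternatives. Averaging probe sets could not change the fold changes of these 9 genes, since each had a single probe set. The threshold of 0.01 was applied to the main fit. Igfbp6 kept its direction throughout, from -0.38 to -0.25 without 1 array and at -0.31, -0.35 and -0.34 without the arrays numbered 1, 2 and 3. It missed the threshold with array weights (-0.29) and at 0.01 (-0.33), where the count of genes lower was 0, and that count ranged from 0 to 1 without 1 array. Igfbp5 and Igfbp7 turned sign with quantile normalization (-0.021 and -0.012) and cyclic loess (-0.014 and -0.0016), Igfbp5 also with array weights (-0.024). Without 1 array Igfbp5 ran from -0.067 to 0.056 and Igfbp7 from -0.042 to 0.059. Without the arrays numbered 1 Igfbp5 was at -0.038, and without those numbered 4 they were at -0.018 and -0.039.

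Over all probe sets, 1814 were higher and 1728 lower, against 944 and 686 at a threshold of 0.01. Without the arrays numbered 1 they were 1137 and 1033, without 2 they were 1055 and 821, without 3 the lower count was 1077, and without 4 they were 1093 and 934. The 8 pathway genes higher became 5 at 0.01 and without the arrays numbered 3 or 4. The single glucose uptake gene higher became 0 at 0.01 and without the arrays numbered 2, 3 or 4, and the 2 lower became 1 without 2. The single protease gene higher became 2 with quantile normalization, median centring, cyclic loess or array weights, and 0 at 0.01 and without the arrays numbered 3 or 4, and ranged from 0 to 1 without 1 array. The single one lower became 0 with the replicate block, median centring, at 0.01 and without those numbered 2, 3 or 4, and 2 with quantile normalization, cyclic loess or without dim probe sets. The single dampener lower became 0 at 0.01 and without the arrays numbered 1, 3 or 4, and ranged from 0 to 2 without 1 array. Carriers lower were 1 with array weights and ranged from 0 to 1 without 1 array. Among marker lists, fibroblast genes higher fell to 4 at 0.01 and without the arrays numbered 1, 2 or 4, and ranged from 4 to 6 without 1 array, and those lower were 2 without dim probe sets or with trend and robust variance. Endothelial genes lower were 3 at 0.01, 5, 3, 4 and 4 without the arrays numbered 1 to 4, and 5 to 8 without 1 array. Adipocyte genes lower were 2 with the block or without dim probe sets, 1 at 0.01 and without those numbered 2 or 4, and 2 to 3 without 1 array. The tendon gene lower was lost (0) at 0.01 and without the arrays numbered 2, 3 or 4, and 1 myoblast gene was higher without dim probe sets. A stricter threshold can pass no more genes, by construction. Fitting fewer arrays can move a count either way, and the cause of the other shifts was not tested.

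Same-numbered arrays deviated together weakly (r across probe sets 0.045 to 0.097), yet each array correlated best with its own number. Arrays of different numbers ran from -0.080 to 0.028. The numbers may therefore mark pairs, but the labels do not say so, and the main fit used no block. With the replicate number as a block, 1639 probe sets were higher and 1532 lower. Igf1 (limma adjusted p = 0.0124) and Igfbp6 (0.0224) stayed past the threshold, and no other of the 9 genes passed it. With 4 arrays a group, and no background signal in the deposited values, small changes of dim probe sets may have gone undetected.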
